A study of Homo sapiens with 2 samples.

Results

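RNA levels of the enzymes that make cysteine from homocysteine and of those that build, break, reduce and use glutathione were compared in human multiple myeloma cells. The 10 genes were CBS, CTH, GCLC, GCLM, GSS, CHAC1, GGCT, GSR, GPX1 and GPX4, out of 57485 genes measured. They were chosen by name for their roles in this pathway and on their measured levels in these same libraries, so their ratios are given as a description with no test.

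The cells were ARP1, an established myeloma line, carrying a lentiviral TRIPZ construct from which doxycycline (Dox) induces a short hairpin RNA against SRD5A1, the gene of steroid 5 alpha-reductase 1. Poly(A) RNA was sequenced in 1 library labelled as untreated and 1 labelled with doxycycline. Both libraries share the construct, and Dox-treated cells without the hairpin were not analysed here, so an effect of Dox and an effect of the hairpin cannot be told apart. The dose and duration of Dox for these libraries are not given in the sources used here. With 1 library per condition there was no replicate check, so no p-value is given and every interval covers counting error only. A gene was called higher or lower when its FPKM (fragments per kilobase of transcript, scaled to library size) differed by more than 2-fold, as log2 of FPKM plus 0.1, in the library labelled with Dox over the library without Dox.

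SRD5A1 itself went against the label. It had 13.04 FPKM without Dox and 25.88 FPKM with Dox, a log2 ratio of 0.98 (95% interval 0.90 to 1.08), and the genotype label of the library with Dox names SRD5A2, which was at 0.03 and 0.09 FPKM. SRD5A1 was just within the 2-fold limit, and passed it only on TPM and on expected counts scaled to library size. SRD5A3, the remaining family member, had 5.68 and 4.51 FPKM, a log2 ratio of -0.33. Every direction below therefore rests on the labels as deposited. The libraries held 45918570 and 48728927 expected counts, and 13445 and 14379 genes reached 1 FPKM. All 9 plasma cell markers examined were at or above 15.73 FPKM in both libraries, and the T cell, myeloid, erythroid, epithelial and fibroblast markers examined were at most 3.04 FPKM, with CD3D of T cells at 0 in both.

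Transsulfuration carries the sulfur of methionine into cysteine. Cystathionine beta-synthase (CBS) joins homocysteine and serine, and cystathionine gamma-lyase (CTH) splits the product to release cysteine. Glutamate-cysteine ligase, made of a catalytic (GCLC) and a modifier (GCLM) subunit, and glutathione synthetase (GSS) then assemble glutathione, the main thiol of the cytosol, which CHAC1 can degrade and which glutathione peroxidases spend on peroxides. Myeloma cells secrete large amounts of disulfide-bonded antibody, and many of these genes are known targets of the transcription factors ATF4, through the C/EBP-ATF response element, and NRF2 (gene NFE2L2), through the antioxidant response element.

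Promoter windows are shown for the 3 members that were higher with Dox and for GCLM, because they show where the letters of these elements were and were not found. Each window is 300 bases around a RefSeq transcript start on GRCh38.p14, 5′ to 3′ on the gene's strand, with a match in capitals. The letters searched on both strands were TGATGNAA, the core of the C/EBP-ATF response element, and TGACNNNGC, the core of the antioxidant response element. The windows are chr15:40953221-40953520 (plus strand) for CHAC1, chr1:70411018-70411317 (plus strand) for CTH, chr21:43076328-43076627 (minus strand, the first of 3 listed starts) for CBS and chr1:93909381-93909680 (minus strand) for GCLM. By the GENCODE gene coordinates given below, the CHAC1 and CBS windows lie wholly inside the gene. RefSeq and GENCODE thus place the first start of these genes differently.
CHAC1: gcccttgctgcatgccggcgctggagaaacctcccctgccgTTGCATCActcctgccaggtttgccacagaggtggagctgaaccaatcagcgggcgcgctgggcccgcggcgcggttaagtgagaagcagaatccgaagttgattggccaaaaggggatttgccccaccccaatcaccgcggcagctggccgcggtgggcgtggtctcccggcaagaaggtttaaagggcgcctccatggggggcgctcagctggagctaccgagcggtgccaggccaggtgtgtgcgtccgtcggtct
CTH: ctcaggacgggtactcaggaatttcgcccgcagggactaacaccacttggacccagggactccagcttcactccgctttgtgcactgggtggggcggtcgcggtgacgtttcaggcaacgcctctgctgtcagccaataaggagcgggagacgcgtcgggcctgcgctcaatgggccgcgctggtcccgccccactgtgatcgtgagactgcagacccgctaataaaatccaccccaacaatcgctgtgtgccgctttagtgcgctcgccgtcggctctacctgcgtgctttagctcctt
CBS: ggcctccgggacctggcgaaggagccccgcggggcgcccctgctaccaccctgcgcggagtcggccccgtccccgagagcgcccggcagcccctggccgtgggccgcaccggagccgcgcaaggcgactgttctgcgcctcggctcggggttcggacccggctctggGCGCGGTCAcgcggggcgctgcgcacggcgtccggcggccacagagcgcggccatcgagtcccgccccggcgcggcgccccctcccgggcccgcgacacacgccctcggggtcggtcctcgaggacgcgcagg
GCLM: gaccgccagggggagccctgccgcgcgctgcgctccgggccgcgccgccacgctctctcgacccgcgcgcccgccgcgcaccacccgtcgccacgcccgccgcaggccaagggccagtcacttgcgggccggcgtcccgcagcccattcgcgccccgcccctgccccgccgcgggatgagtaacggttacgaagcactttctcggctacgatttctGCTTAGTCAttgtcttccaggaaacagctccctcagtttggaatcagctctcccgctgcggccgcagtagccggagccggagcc
The CHAC1 window held TTGCATCA, the reverse-strand form of the first motif, at bases 42 to 49, which 3.62% of 35116 windows in the table shared. The GCLM window held GCTTAGTCA at bases 217 to 225 and the CBS window held GCGCGGTCA at bases 168 to 176. Both are reverse-strand forms of the second motif, found in 13.3% of windows. The other 2 CBS windows had no match, and none was found in the CTH window. Windows were listed for 7 of the 10 members, and GCLC, GPX1 and GPX4, with 5 windows between them, had no match of either kind. GSS, GSR and GGCT were not in the table. A match is a description of letters and not a measured binding site.

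Cysteine synthesis and CHAC1 were higher in the library labelled with Dox, and none of the other members with enough RNA to be tested passed 2-fold. CTH, CHAC1 and CBS were the 3 members called higher, 33.3% of the 9 that reached 1 FPKM in either library. Among all 14859 genes tested in this way, 17.0% were higher and 6.41% were lower. Of the genes past 2-fold, 72.6% were higher on FPKM as deposited, 56.0% with TMM factors and 55.2% with DESeq2 size factors. None of the 9 members was called lower, and 5 of the 6 that stayed within 2-fold had a log2 ratio below 0. GPX1 was under 1 FPKM in both libraries and was not tested. The median log2 ratio was -0.26 over all 10 members, also with GPX1 set at the floor of 3 counts, and -0.10 over the 9 tested, beside 0.15 over all genes tested. Since the members were chosen with these ratios known, nothing is read from the difference in shares.

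**Figure D1:**
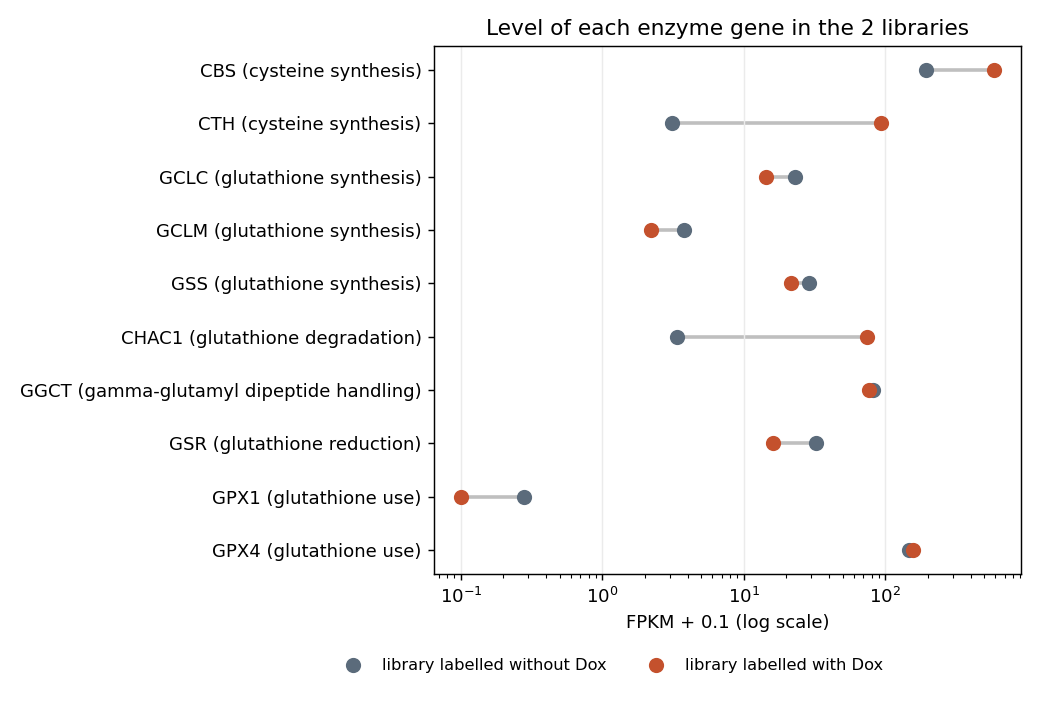
FPKM of each of the 10 enzymes (log axis) in the library without Dox and the library labelled with Dox, 1 point per library, ordered by step. CTH lies at 3.0 and 92.53 FPKM and CHAC1 at 3.28 and 73.7 FPKM, CBS is already the most abundant member without Dox at 195.1 FPKM, and the points of GGCT and GPX4 nearly coincide.

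Summed over steps, the RNA for making cysteine took a larger part of the total and the RNA for making glutathione a smaller part. CBS and CTH together had 198.1 FPKM without Dox and 676.9 FPKM with Dox, a 3.42-fold difference (log2 ratio 1.77). This was 38.2% and 65.2% of the summed FPKM of the members. GCLC, GCLM and GSS together had 55.09 and 37.66 FPKM, a log2 ratio of -0.55 that stayed within 2-fold, and their part of the sum was 10.6% and 3.63%. The sum over all members was 518.84 and 1037.98 FPKM, and CBS alone was 37.6% and 56.3% of it. The part of GGCT also went from 15.8% to 7.36%, though its level was 82.12 and 76.4 FPKM. A smaller part of this larger sum therefore need not mean less RNA.

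CBS (ENSG00000160200.17, chr21:43053191-43076943, minus strand), the first enzyme of transsulfuration, had 11287 expected counts without Dox and 35414 with Dox. Its level was 195.1 and 584.37 FPKM, a log2 ratio of 1.58 (95% interval 1.55 to 1.61) or 2.99-fold. It was the 560th most abundant gene without Dox and the 164th with Dox. CBSL, a near-identical copy annotated elsewhere on the same chromosome at chr21:6444869-6468040, was also higher. It had 13.03 and 40.55 FPKM, a log2 ratio of 1.63. Of the 150-base windows in CBS transcripts, 46.9% also occurred in CBSL transcripts, so how reads were divided between the rows is uncertain. The sum of both rows was 208.13 and 624.92 FPKM, with a log2 ratio of 1.59, and CBSL held 2.20% and 2.15% of the counts of the pair.

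CTH (ENSG00000116761.11, chr1:70411218-70439851, plus strand), which releases cysteine from cystathionine, had the widest difference of the 10. It had 191 expected counts without Dox and 6964 with Dox, or 3.0 and 92.53 FPKM. The log2 ratio was 4.90 (4.74 to 5.16), 29.9-fold, and 99.7% of tested genes had a lower ratio. In rank of abundance CTH was 10786th without Dox and 1147th with Dox. CBS and CTH act in sequence, and their levels were far apart without Dox, with 65.0 times as much CBS as CTH by FPKM. With Dox the same quotient was 6.32.

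CHAC1 (ENSG00000128965.12, chr15:40952962-40956519, plus strand), a gamma-glutamylcyclotransferase that cleaves glutathione, had the next widest difference. It had 193 expected counts without Dox and 4534 with Dox, or 3.28 and 73.7 FPKM. Of the 5 transcripts in its row, 2 were in the GENCODE release that gave these coordinates. The log2 ratio was 4.45 (4.28 to 4.70), 21.8-fold, above that of 99.5% of tested genes. CHAC2, the second enzyme of this small family, had 14.81 and 16.57 FPKM, a log2 ratio of 0.16 within 2-fold. CHAC1 RNA was therefore 0.221 times the level of CHAC2 RNA without Dox and 4.45 times that level with Dox. Against the synthetic enzymes the order also turned, since CHAC1 was at 0.144 times the FPKM of GCLC without Dox and 5.19 times with Dox. The corresponding quotients against GSS were 0.114 and 3.45.

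GCLC, GCLM and GSS, the enzymes of glutathione synthesis, were each within 2-fold, with lower FPKM in the library labelled with Dox. GCLC (ENSG00000001084.12, chr6:53497341-53616970, minus strand) had 22.72 and 14.19 FPKM, a log2 ratio of -0.68 (-0.79 to -0.57). GCLM (ENSG00000023909.9, chr1:93885205-93909456, minus strand) had 3.65 and 2.1 FPKM, a log2 ratio of -0.77 (-0.99 to -0.60). GSS (ENSG00000100983.10, chr20:34928433-34956027, minus strand) had 28.72 and 21.37 FPKM, a log2 ratio of -0.42 (-0.52 to -0.33). The quotient of catalytic to modifier subunit was nearly the same in both libraries, at 6.22 and 6.76 by FPKM. Its size and direction depend on the length given for GCLM, 32% longer with Dox. On expected counts the log2 ratio of GCLC (-0.48) was below that of GCLM (-0.37), so the quotient was slightly lower with Dox.

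The size of these differences depended in part on the transcript lengths the authors' files assign to each library. The mean transcript length given for GCLM was 3121 bases without Dox and 4120 bases with Dox, 32% longer, and only 2.07% of tested genes had a larger increase. For GCLC it was 12.6% longer and for GSS 4.85% longer, while the median gene did not differ. On expected counts scaled to library size only, which leave length aside and carry no pseudocount, the log2 ratios were -0.48 for GCLC, -0.37 for GCLM and -0.35 for GSS. CTH, whose length was 9.97% longer, had a ratio of 5.10 on that scale in place of 4.90. The expected counts themselves were 1520 and 1154 for GCLC, 482 and 397 for GCLM, and 1940 and 1616 for GSS.

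**Figure D2:**
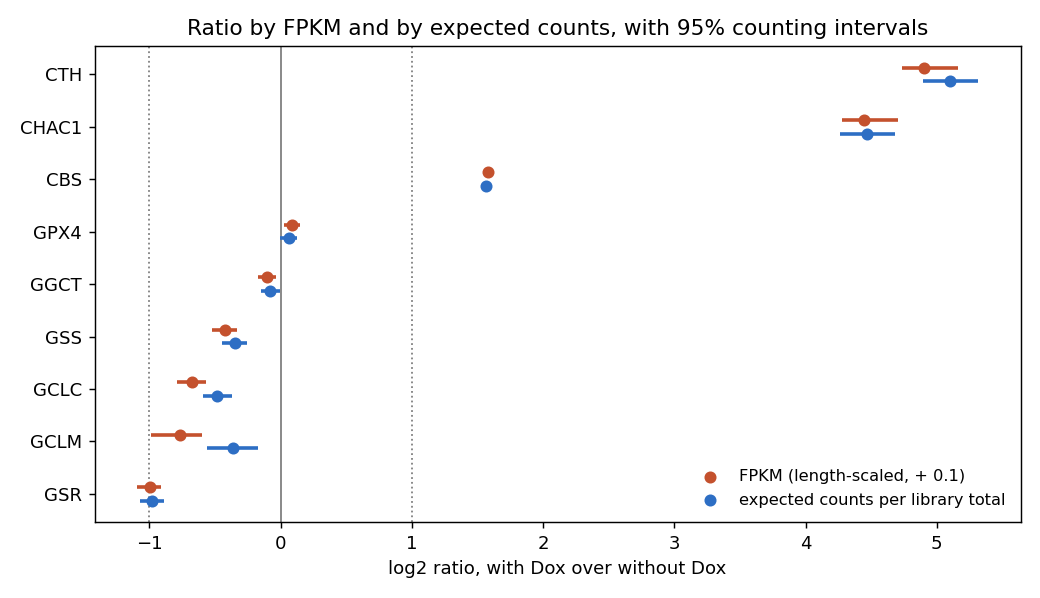
Log2 ratio of each of the 9 tested members (GPX1 is not plotted), library labelled with Dox over library without Dox, from FPKM (with pseudocount 0.1) and from expected counts scaled to library size, with 95% Clopper-Pearson intervals that cover counting error only and lines at 2-fold. CTH (4.90), CHAC1 (4.45) and CBS (1.58) lie beyond 2-fold, the FPKM ratio of GSR lies at the lower line, and for GCLM the FPKM and count ratios are -0.77 and -0.37.

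GSR (ENSG00000104687.13, chr8:30678061-30727999, minus strand), the reductase that returns oxidized glutathione to its thiol form, came closest to the lower limit. It had 2656 expected counts without Dox and 1428 with Dox, or 32.11 and 16.02 FPKM. The log2 ratio was -0.999 (-1.10 to -0.91), just inside the 2-fold limit, and 6.44% of tested genes had a lower ratio. GSR was past the limit with TMM factors, DESeq2 size factors, centring or a pseudocount of 0.01, over a range of -1.22 to -0.90 with all settings. Of the members beyond the limit on the other side, the nearest was CBS at 1.58.

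GGCT (ENSG00000006625.17, chr7:30496621-30504844, minus strand), which converts gamma-glutamyl dipeptides to 5-oxoproline, was nearly level. It had 82.12 and 76.4 FPKM, a log2 ratio of -0.10 (-0.18 to -0.03). Its exons overlap those of AC005154.5 over 441 bases, but that row held only 3.74 and 7.96 expected counts against 3139 and 3154 for GGCT. For GCLC the overlapping rows AL033397.1 and AL033397.2 held at most 2 counts.

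The peroxidases differed widely in level from each other. GPX4 (ENSG00000167468.16, chr19:1103926-1106791, plus strand), the selenoenzyme that reduces lipid hydroperoxides, had 147.96 and 157.3 FPKM. Its log2 ratio was 0.09 (0.02 to 0.15), and its sign turned under TMM factors, DESeq2 size factors and centring on the median gene, with a range of -0.13 to 0.19 over all alternatives. The quotient of GPX4 to GSR was 4.61 without Dox and 9.82 with Dox. GPX1 (ENSG00000233276.4, chr3:49357171-49358600, minus strand), the abundant cytosolic peroxidase of many tissues, had 6 expected counts without Dox and 0 with Dox. The exact 95% counting interval of the ratio with Dox over without reached up to 0.80, so the depth of GPX1 allowed little to be said of its size. Its processed copies GPX1P1 and GPX1P2 were at 0 counts in both libraries.

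Seen against all tested genes, the members spread over most of the range. CTH and CHAC1 were in the top 1% of log2 ratios, and CBS had a higher ratio than 92.1% of genes. GPX4, GGCT and GSS had higher ratios than 46.5%, 35.6% and 20.8% of genes. GCLC, GCLM and GSR were lower still, at 13.0%, 10.8% and 6.44%.

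**Figure D3:**
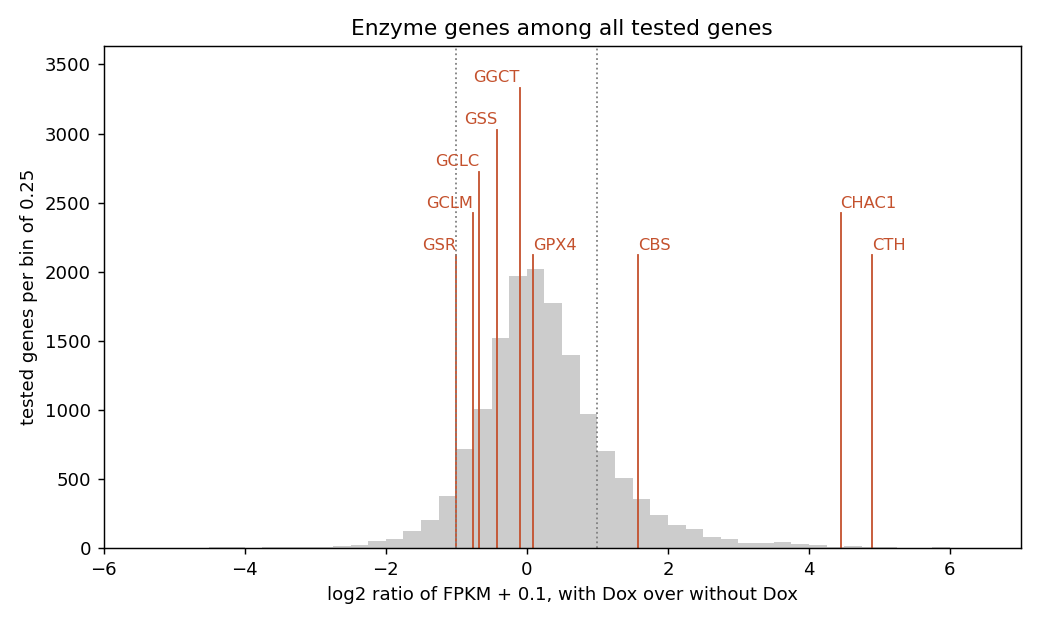
Number of tested genes by log2 ratio of FPKM, library labelled with Dox over library without Dox, for 14859 genes that reached 1 FPKM in either library, with the 9 tested members marked and lines at 2-fold. The median gene lies at 0.15, CTH and CHAC1 lie in the far right tail, and 6 members lie between the lines.

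The protein-coding genes nearest to each member in level over both libraries were found by the Euclidean distance of log2(FPKM + 0.1) among 11459 genes. With 2 libraries this only says that levels were alike. SLC6A9, a glycine transporter, was nearest to both CTH (distance 0.32) and CHAC1 (0.21), with 2.83 FPKM without Dox and 74.63 FPKM with Dox. CTH and CHAC1 lay 0.35 apart. SLC1A5, a glutamine transporter, was nearest to CBS (0.30), with 221.71 and 686.58 FPKM, and NARS, the asparaginyl-tRNA synthetase, was next (0.32). Around GSR the nearest gene was NDUFAF1, an assembly factor of respiratory complex I, with 32.28 and 15.93 FPKM.

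RNA for the uptake of cystine, another source of cysteine, was higher too. Of 4 genes of cystine import, 2 reached 1 FPKM and both were called higher, beside 17.0% of all tested genes. SLC7A11, the cystine-glutamate exchanger, had 2.15 and 32.5 FPKM, a log2 ratio of 3.86. SLC3A2, its heavy chain, which also pairs with other amino acid transporters, had 137.85 and 707.19 FPKM, a log2 ratio of 2.36. The other pair, SLC7A9 and SLC3A1, which form the renal cystine transporter, were under 1 FPKM.

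The steps before and after transsulfuration were mostly within 2-fold. Of 11 methionine cycle genes, 7 were tested and 1 was higher, beside 17.0% of all tested genes, with a median log2 ratio of 0.08. That gene was AHCYL1, a relative of the enzyme that makes homocysteine which is itself known as a regulator of calcium release, with 13.28 and 33.10 FPKM and a log2 ratio of 1.31. Of 10 genes of cysteine and sulfide breakdown, 8 were tested and 1 was higher, beside the same 17.0%, with a median of 0.09. The gene was GOT1, the cytosolic aspartate transaminase, with 54.82 and 171.05 FPKM and a log2 ratio of 1.64.

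Other genes of the gamma-glutamyl cycle and of peptide breakdown were mostly within 2-fold. Of 13 such genes, 6 were tested and 1 was higher, beside 17.0% of all tested genes, with a median log2 ratio of 0.18 beside 0.15. GGACT, gamma-glutamylamine cyclotransferase, had 8.52 and 21.78 FPKM, a log2 ratio of 1.34. Among the other 6 glutathione peroxidases only GPX3, the secreted form, reached 1 FPKM, with 1.88 and 2.35 FPKM and a log2 ratio of 0.31.

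**Figure D4:**
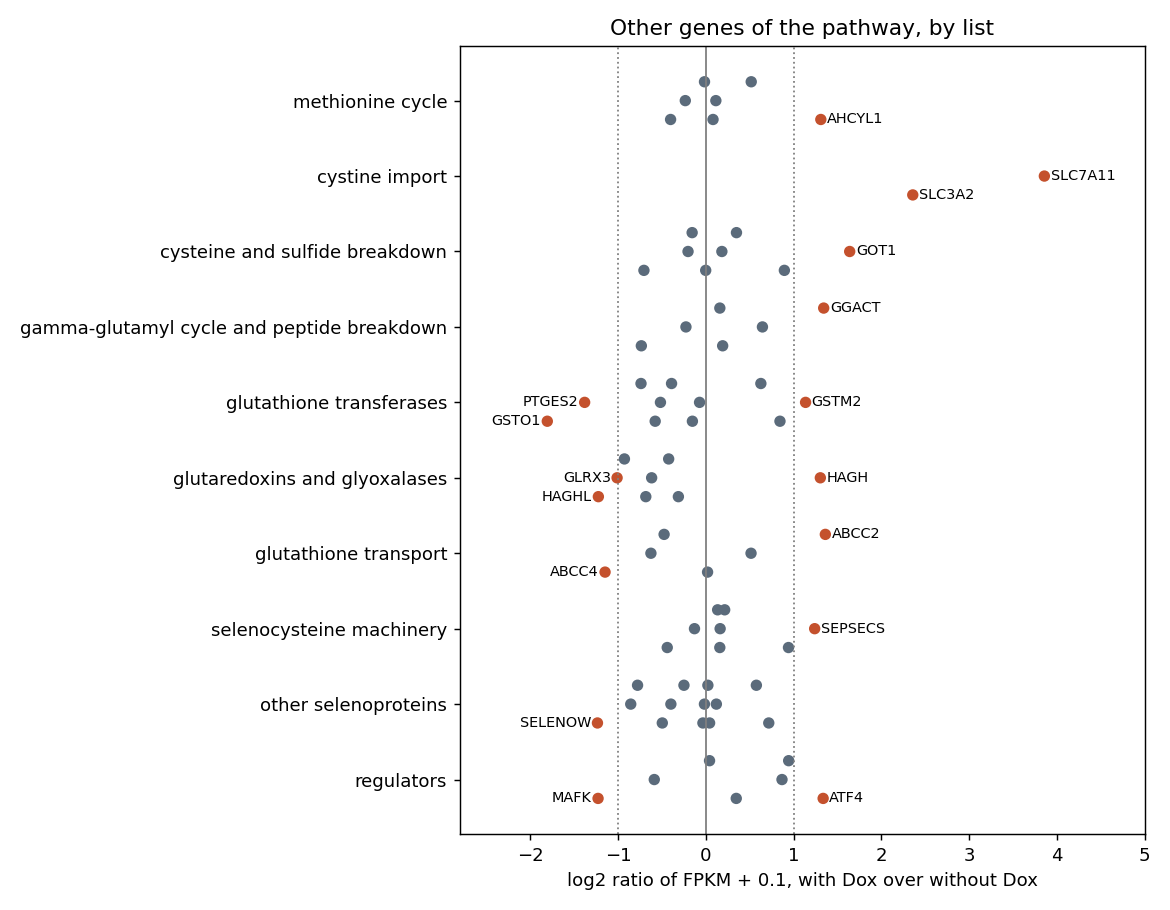
Log2 ratio of FPKM, library labelled with Dox over library without Dox, of each tested gene in lists of related genes, 1 point per gene, with lines at 2-fold. The members and the other glutathione peroxidases are not plotted. Both tested genes of cystine import lie beyond the upper line, at 2.36 and 3.86. The medians of the remaining related lists, which are not drawn, were between -0.65 and 0.35.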

How the data were processed

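Poly(A) RNA of ARP1 cells was read in pairs of 150 bases in 2 libraries, 1 per condition. The authors deposited, per gene, expected counts (not all whole), TPM, FPKM and the gene's length and effective length in that library. The submitters' processing notes list Bowtie 0.12.2, HISAT2 2.1.0, StringTie 1.3.4d and hg19 with no role or order, and the counter is not given in the sources used here. The deposited transcript IDs matched GENCODE release 29 (GRCh38) for 202888 of 204675 transcripts and 56663 of 57485 genes, and coordinates are from that release. The tables hold no strand information, so a gene and an antisense partner cannot be told apart.

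The members and gene lists were chosen with earlier results of these data known. Log2 ratios were taken on FPKM plus 0.1 over genes that reached 1 FPKM in either library. Intervals are exact binomial (Clopper-Pearson, 95%) on rounded expected counts, with no pseudocount. A floor of 3 counts per library was used for a count of 0. Alternatives were a pseudocount of 1 or 0.01, the deposited TPM, TMM factors (edgeR 4.0.16) and size factors (DESeq2 1.42.0) from genes with at least 10 counts, centring on the median gene, filters of 0 or 5 FPKM, and the sum of CBS and CBSL. Named were all members, list genes past 2-fold (at most 4 per list, otherwise the 2 most abundant), the nearest genes, copies and SRD5A1 to SRD5A3. CHAC2, SLC7A9, SLC3A1, NFE2L2, GLRX2, SELENOM, SECISBP2 and BACH1 were named after their values were seen. The ratio and interval steps were tested on simulated counts, and the other steps were not. R 4.3.3, Python 3.11.15, pandas 2.3.3, numpy 2.4.6, scipy 1.17.1 and matplotlib 3.10.9 were used.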

Additional observations from a re-analysis of the deposited data

How the results depend on the processing

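The number of members called higher was 3 under each of the 7 other settings, and CBS, CTH and CHAC1 kept their direction, with log2 ratios of 1.36 to 1.68, 4.55 to 5.07 and 4.13 to 4.55. GSR, at the limit, was called lower (1 member) with a pseudocount of 0.01, TMM factors, DESeq2 size factors or centring. The scalings shift all genes, whose median of 0.15 became 0.25 with TPM, -0.05 with TMM, -0.06 with DESeq2 factors, and 0 with centring.

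Glutathione use, the sum of GPX1 and GPX4, was at 148.14 and 157.3 FPKM, with a main log2 ratio of 0.087. GPX4 alone held 147.96 and 157.3 FPKM, so this step repeats GPX4. With TPM the members' median was -0.17, cysteine synthesis 1.87, glutathione synthesis -0.45, glutathione use 0.18 and CBS 1.68. With TMM factors these were -0.47, 1.56, -0.76, -0.12 and 1.37. With DESeq2 size factors they were -0.48, 1.55, -0.77, -0.13 and 1.36, and CHAC1 was at 4.23. Centring gave -0.42, 1.62, -0.70, -0.066 and 1.43. A pseudocount of 1 gave a median of -0.17 and CHAC1 at 4.13. On counts scaled to library size only, an alternative chosen after seeing the data, glutathione synthesis was -0.40. The share of genes past 2-fold was 23.4%, 23.5% with no filter and 17.7% at 5 FPKM or more.

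No paired analysis was possible because each condition holds 1 library, so leaving out a replicate was not run either, and the intervals leave out the variation between cultures. FPKM and TPM are shares of a library and hold no measure of RNA per cell. RNA was measured, not protein, cysteine or glutathione.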

Other observations

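Genes listed for glutathione use or transport were mostly within 2-fold. Tested were 11 genes of the transferase list, 8 of glutaredoxins and glyoxalases and 6 of transport. Of these, 3 were higher and 5 were lower in the library labelled with Dox, beside 17.0% and 6.41% of all tested genes. As the lists were chosen with earlier results known, nothing is read from these shares. The list of 23 glutathione transferases also holds prostaglandin synthases. Of its genes, 11 were tested, 1 was higher and 2 were lower, with a median log2 ratio of -0.39. GSTO1, an omega-class transferase that reduces dehydroascorbate, had 63.66 and 18.16 FPKM (log2 ratio -1.80), and PTGES2, a prostaglandin E synthase, had 54.35 and 20.84 FPKM (-1.38). GSTM2 had 0.85 and 1.99 FPKM (1.14), but near-identical GSTM genes make the division of its reads uncertain, and it was within 2-fold under TMM factors, DESeq2 size factors, centring and a pseudocount of 1. Of 8 glutaredoxins and glyoxalases, all were tested, 1 was higher and 2 were lower, with a median of -0.65. HAGH, which releases glutathione in the glyoxalase pathway, had 23.72 and 58.78 FPKM (1.31), while its relative HAGHL had 29.37 and 12.53 FPKM (-1.22). GLRX3, a glutaredoxin of iron-sulfur trafficking, had 77.01 and 38.21 FPKM (-1.01) and was within 2-fold on TPM and with a pseudocount of 1. GLRX2, within 2-fold at 23.17 and 12.15 FPKM (-0.93), was called lower under TMM factors, DESeq2 size factors and centring. Its mean length was 57.3% longer with Dox, and its log2 ratio on expected counts was -0.19. Among 6 glutathione transport genes, all tested, 1 was higher and 1 was lower, with a median of -0.23. ABCC2 had 0.46 and 1.34 FPKM (1.36, within 2-fold with a pseudocount of 1) and ABCC4 had 9.97 and 4.45 FPKM (-1.15).

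GPX4 contains selenocysteine, and the genes that place this amino acid were mostly within 2-fold. Of 8 genes of that machinery, all tested, 1 was higher, beside 17.0% of all tested genes, and the median was 0.16. SEPSECS, which makes selenocysteine on its tRNA, had 3.31 and 7.96 FPKM (1.24). SECISBP2, at 31.99 and 61.59 FPKM (0.94), was called higher on TPM only. Among 19 other selenoproteins, 13 were tested, 0 were higher and 1 was lower, beside 17.0% and 6.41% of all tested genes, with a median of -0.03. That gene was SELENOW, a small redox protein, with 60.7 and 25.77 FPKM (-1.23). SELENOM, at 12.17 and 6.69 FPKM (-0.85), was also called lower under TMM factors, DESeq2 size factors and centring. Of 7 transcription factors and partners of these pathways, 1 was higher and 1 was lower, beside the same 17.0% and 6.41%. Their median was 0.35. ATF4 had 406.22 and 1026.75 FPKM (1.34), and MAFK, a small Maf partner of NRF2, had 12.25 and 5.18 FPKM (-1.23). NFE2L2 itself had 27.53 and 50.36 FPKM (0.87), within 2-fold. BACH1, at 9.78 and 18.92 FPKM (0.94), was called higher on TPM only.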
